A study of Mus musculus with 9 samples.

Results

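The insulin-like growth factor (IGF) axis of mouse testicular peritubular myoid cells was described through 9 genes: the binding proteins Igfbp2, Igfbp3, Igfbp4, Igfbp5, Igfbp6 and Igfbp7, the receptors Igf1r and Igf2r, and the ligand Igf2. The members were chosen by name, and all 9 had a row among the 17559 genes with expression values. Peritubular myoid cells are the smooth muscle-like cells that wrap the seminiferous tubules. Primary cells from C57BL/6J mice were cultured at 37 °C in medium with 10% serum. Control cells were not heated, and heated cells spent 30 min at 42 °C in a water bath and were harvested 1 h or 6 h afterwards. Each group had 3 libraries of total RNA, all made from primary cultures, so every group carries the serum and the isolation that the controls carry. No harvest time is given here for the controls, so a difference in handling or time in culture cannot be told apart from heat. Values are FPKM, fragments counted per length of transcript and per size of the library. No source used here says whether the replicates came from separate animals or cultures. The p-values thus reflect how far the libraries of a group scatter, and this scatter may not include differences between animals.

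IGF1 and IGF2 act on cells through IGF1R, a receptor tyrosine kinase. IGF-binding proteins hold the ligands outside the cell with high affinity, prolong their life and control how much of them reaches the receptor, and proteases release the ligand by cutting the binding protein. IGF2R, the cation-independent mannose 6-phosphate receptor, carries IGF2 and lysosomal enzymes to lysosomes and does not signal as a kinase. In the testis, IGF signalling is known for its part in the proliferation of Sertoli cells and the function of Leydig cells.

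The depth, inferred from the smallest values of short transcripts, was 19000000 to 20000000 reads per library. Contractile markers fitted the labelled cell type: all 8 of 8 were present in every library, with a summed level of 3680 to 5436 FPKM and Acta2, the actin of smooth muscle, at 992 to 1627 FPKM. Markers of other testicular cells were present too, and their levels stand below beside the results they move with. Heat was visible in Hspa1a, an inducible HSP70, at 6.92 to 12.3 FPKM in control, 1228 to 1794 FPKM at 1 h and 27.1 to 49.3 FPKM at 6 h. The other heat-response checks were Dnajb1 and Hsph1. Dnajb1 stood at 19.2 to 27.4 FPKM in control, 439 to 658 FPKM at 1 h and 16.0 to 25.6 FPKM at 6 h. Hsph1 stood at 18.6 to 23.1 FPKM in control and 302 to 447 FPKM at 1 h. In 6 h replicates 1, 2 and 3 Hsph1 was at 289, 15.9 and 110 FPKM, so these libraries were not alike. Over all genes tested the limma test called 18 genes higher and 0 lower at 1 h, 0 in either direction at 6 h against control, and 0 higher and 32 lower at 6 h against 1 h, and none of these genes is a member.

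Where the genes lie is shown with the bases before their start sites, since a pair of neighbours with opposite levels opens the results. Igfbp2 and Igfbp5 point towards each other on chromosome 1, Igfbp2 at 72824480 to 72852474 on the plus strand and Igfbp5 at 72858065 to 72874865 on the minus strand, with 5590 bases between them (mm10). Igfbp3 lies on chromosome 11 at 7206086 to 7213923, minus strand, 3539 bases from Igfbp1, which was not analysed here. Igfbp4 lies on the same chromosome at 99041260 to 99052646, plus strand, and Igfbp6 on chromosome 15 at 102144186 to 102149512, plus strand. Printed are the 160 bases before the RefSeq start (GRCm38.p6, gene strand, 5′ to 3′) of the neighbours and of the 2 members whose windows held a TATA box. These are Igfbp2 at chr1:72824320-72824479 (+), Igfbp5 at chr1:72874866-72875025 (-), Igfbp4 at chr11:99041084-99041243 (+) and Igfbp6 at chr15:102144026-102144185 (+). Capitals mark GC boxes (GGGCGG), 2-unit heat-shock elements (GAANNTTC or TTCNNGAA) and TATA boxes (TATAAA), each on either strand.
Igfbp2: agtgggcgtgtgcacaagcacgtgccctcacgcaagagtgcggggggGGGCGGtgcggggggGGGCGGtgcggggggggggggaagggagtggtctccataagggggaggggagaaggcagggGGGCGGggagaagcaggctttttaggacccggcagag
Igfbp5: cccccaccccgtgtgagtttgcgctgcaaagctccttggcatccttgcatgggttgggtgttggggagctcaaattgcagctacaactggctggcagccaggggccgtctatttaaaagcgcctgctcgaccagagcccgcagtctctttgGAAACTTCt
Igfbp4: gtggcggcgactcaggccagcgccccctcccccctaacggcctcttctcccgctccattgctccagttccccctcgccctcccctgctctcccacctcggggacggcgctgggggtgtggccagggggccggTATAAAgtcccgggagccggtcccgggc
Igfbp6: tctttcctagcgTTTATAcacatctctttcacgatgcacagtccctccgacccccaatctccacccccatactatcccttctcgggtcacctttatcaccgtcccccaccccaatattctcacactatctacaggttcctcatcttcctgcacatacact

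The promoters of the members differed in the motifs they held. All 9 members matched the RefSeq promoter table, with 13 start windows, 4 of them of Igf2 and 2 of Igfbp2. Motifs were sought in the 250 bases before each start. The heat-shock element of 3 units, the site of heat-shock factors, which extends the 2-unit form by a further unit at the same spacing, was in 0 of the 13 windows and in 0.466% of all 32817 promoters. The 2-unit form was in 2 of 13, Igfbp5 and 1 window of Igf2, beside 12.8% of all. The window of Hspa1a, which stood higher after heat in these libraries, also held 0 of the 3-unit form. It held 1 match of the 2-unit form, at base -104. A window without the 3-unit form therefore does not tell whether heat raises a gene. A TATA box was in 2 of 13, at base -28 of Igfbp4 and, on the other strand, at base -148 of Igfbp6, beside 12.4% of all. GC boxes were in 6 of 13 windows, of Igfbp2, Igfbp7, Igf1r, Igf2r and Igf2, beside 32.7% of all, and the cAMP response element TGACGTCA was in 0 of 13, beside 1.55%. The windows held 47.6% to 77.6% G and C, beside a median of 52.4% over all promoters. A match is a description of letters and not a measured binding site.

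Binding proteins were among the most abundant transcripts of these cells, and their levels fell into separate tiers. Igfbp7, a secreted protein with low affinity for IGFs that is found in vessel walls and basement membranes, averaged 1096 FPKM over the 9 libraries, with a median rank of 53 among all genes with values. Igfbp2, which carries an integrin-binding motif and favours IGF2, averaged 912 FPKM, a median rank of 50. Igfbp7 exceeded Igfbp2 in 6 of 9 libraries, so their order was not constant. Igfbp3, the main IGF carrier of serum, averaged 239.5 FPKM, Igfbp4 228 FPKM and Igfbp6 178 FPKM. Within this tier the order was not constant either, as Igfbp3 exceeded Igfbp4 in 6 of 9 libraries and Igfbp4 exceeded Igfbp6 in 4 of 9. Every library had all 5 of these binding proteins above both receptors and the ligand. Igf2r averaged 10.3 FPKM, Igf1r 7.11 FPKM and Igf2 3.53 FPKM, and Igf1r exceeded Igf2 in 7 of 9 libraries. FPKM is per length, so these levels can be compared between genes.

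Igfbp5, which binds extracellular matrix as well as IGFs, was the lowest member in each library. It stood at 0.13, 0.28 and 0.52 FPKM in control replicates 1, 2 and 3, at 0.17, 0.33 and 0.69 FPKM at 1 h, and at 2.06, 0.16 and 0.38 FPKM at 6 h. The value of 2.06 FPKM in 6 h replicate 1 stood above the other 8 libraries, which overlapped across the groups. At the inferred depth these values correspond to 15 to 228 reads per library. Only 1 library reached 1 FPKM, where the filter asks for 3, so Igfbp5 was not tested. With no filter its log2 change was 0.09 (SE 0.34) at 1 h and 0.39 (SE 0.34) at 6 h against control, with limma adjusted p of 0.938 and 0.865.

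**Figure D1:**
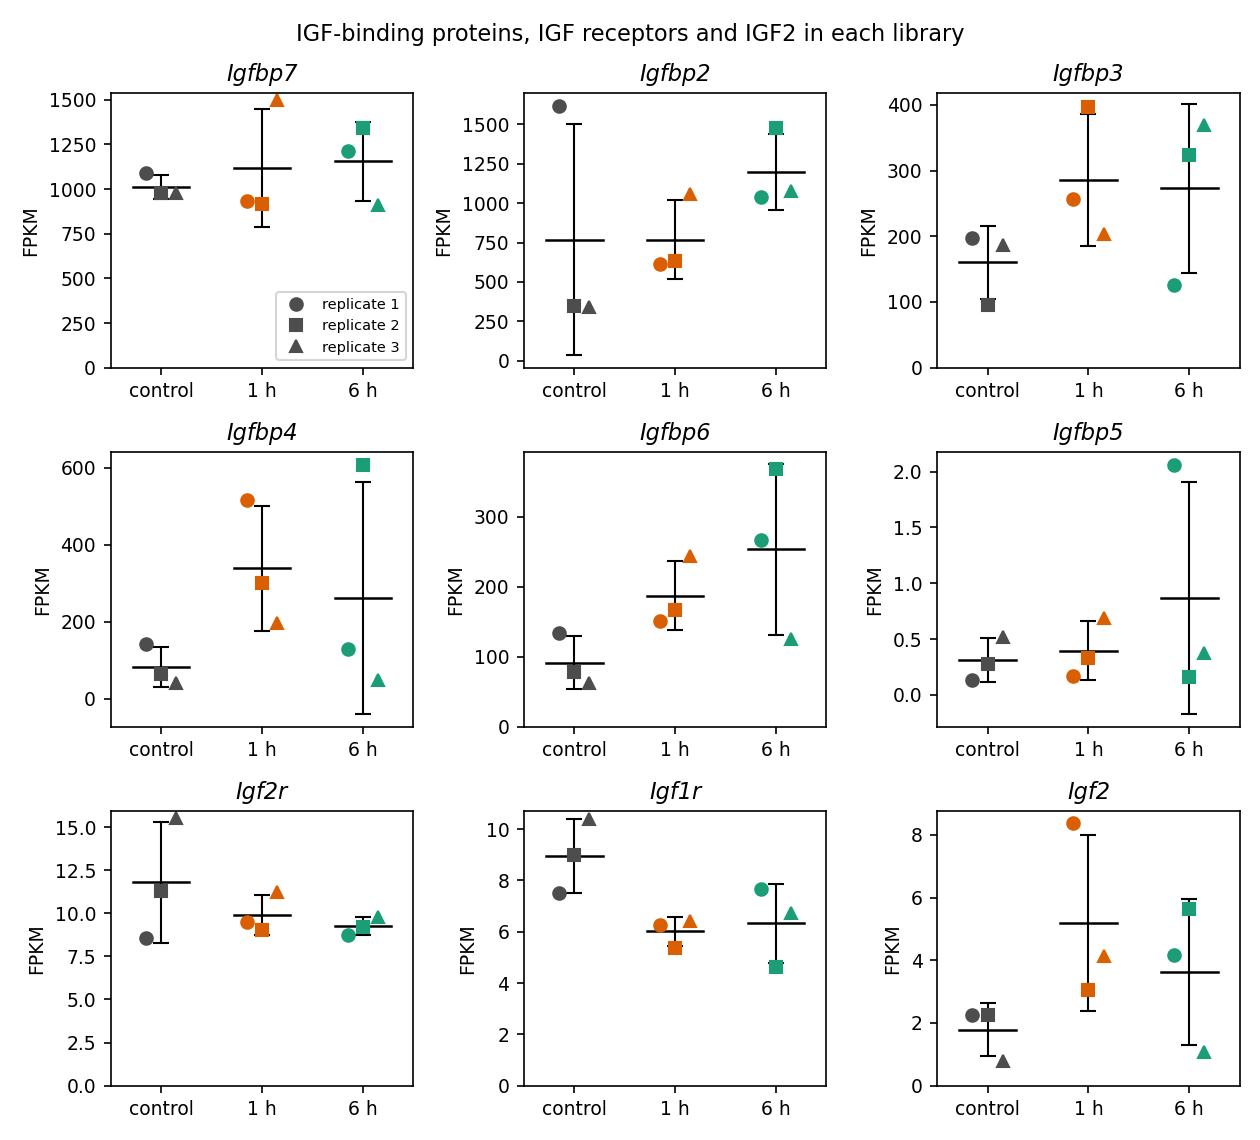
FPKM of the 9 members in each library, by group (control, 1 h and 6 h after heat). Symbols mark replicates 1 to 3, horizontal lines the group mean and bars the SD (n = 3). Igfbp3, Igfbp4, Igfbp6 and Igf2 at 1 h lie above all controls and Igf1r lies below them.

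The first comparison asked how the members stood 1 h after heat. None of the 8 members tested passed (limma, adjusted p at least 0.426, where 0.157% of all genes tested were called higher and 0% lower). For 4 of 8 tested members all 3 libraries at 1 h lay above all 3 controls, beside 4.49% of the 11460 genes tested, and 1 lay below, beside 21.4%. Before adjustment, 3 members had a limma p under 0.05 and stood higher (Igfbp4, Igfbp6 and Igf2), beside 2.76% of all genes, and 1 stood lower (Igf1r), beside 8.05%. The log2 change was above 0 for 6 of 8, beside 23.8% of all genes, and below 0 for 2, beside 76.2%. The median of the 8 was 0.60, beside -0.17 over all genes tested. These shares of all genes depend on the scaling of the libraries, because unscaled FPKM has a median change below 0. With median-of-ratios scaling the median of all genes was -0.01, 47.3% had a log2 change above 0, 9.11% were separated upwards and 6.99% downwards, and with quantile normalization 7.57% and 10.1% were. The members separated were the same 4 upwards and Igf1r downwards with median-of-ratios scaling, and with quantile normalization they were the same without Igfbp3.

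Igfbp4, an inhibitory binding protein that the protease PAPP-A cuts, had the largest difference of the members at 1 h. It stood at 142, 63.0 and 41.7 FPKM in control replicates 1, 2 and 3 and at 517, 301 and 197 FPKM at 1 h. The groups did not overlap, and the lowest heated library was above the highest control. The log2 change was 2.10 (SE 0.82), a 4.29-fold difference with a 95% interval of 1.2 to 15.4, and did not pass (limma adjusted p = 0.439).

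Igfbp6, which prefers IGF2 over IGF1, stood at 134, 78.8 and 62.1 FPKM in control and at 151, 167 and 244 FPKM at 1 h. Its groups did not overlap, with control replicate 1 closest to the heated libraries. The log2 change was 1.07 (SE 0.41), with a 95% interval of 1.11- to 3.97-fold and a limma adjusted p of 0.426. Igfbp3 stood at 198, 96.0 and 186 FPKM in control and at 256, 397 and 203 FPKM at 1 h. Here the gap between the groups was narrow, since 203 FPKM in 1 h replicate 3 was next to 198 FPKM in control replicate 1. The log2 change of Igfbp3 was 0.84 (SE 0.44, limma adjusted p = 0.505), and after quantile normalization its groups overlapped.

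The 2 most abundant binding proteins had intervals on both sides of 0 at 1 h. Igfbp2 stood at 1616, 349.6 and 342 FPKM in control and at 612, 636 and 1059 FPKM at 1 h. Control replicate 1 was the highest of all 9 libraries and controls 2 and 3 the lowest, so the controls enclosed the heated libraries. Its log2 change was 0.36 (SE 0.54, limma adjusted p = 0.764), and without control replicate 3 it was -0.015. Igfbp7 was the most even binding protein, at 1091, 976 and 975 FPKM in control and 936, 915 and 1499.8 FPKM at 1 h. Only 1 h replicate 3 stood apart from the other 5 libraries. The log2 change of Igfbp7 was 0.10 (SE 0.24), with an interval of 0.736- to 1.57-fold, which does not include a 2-fold difference in either direction.

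Among the receptors, Igf1r stood lower at 1 h and Igf2r overlapped. Igf1r was at 7.52, 8.99 and 10.4 FPKM in control and at 6.25, 5.38 and 6.44 FPKM at 1 h. All 3 heated libraries lay below all controls, which was so for 21.4% of all genes tested, and also after median-of-ratios scaling, where the share of all genes was 6.99%. This gave a log2 change of -0.50 (SE 0.20, limma adjusted p = 0.439). Igf2r was at 8.58, 11.3 and 15.5 FPKM in control and at 9.47, 9.05 and 11.2 FPKM at 1 h, a log2 change of -0.20 (SE 0.20, limma adjusted p = 0.67). Control replicate 3 held the highest value of both receptors, and without it the log2 change of Igf2r was 0.002. The ratio of Igf2r to Igf1r was 1.30 ± 0.18 in control, 1.65 ± 0.12 at 1 h and 1.53 ± 0.43 at 6 h (SD, n = 3), with controls from 1.14 to 1.5 and 1 h libraries from 1.52 to 1.74.

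The ligand Igf2, an imprinted fetal growth factor, was low throughout. It stood at 2.27, 2.27 and 0.80 FPKM in control and at 8.37, 3.06 and 4.15 FPKM at 1 h. The groups did not overlap, and 1 h replicate 1 was far above the others. The log2 change was 1.12 (SE 0.47, limma adjusted p = 0.447). GENCODE M21 lists Gm49394 with 3596 exonic bases shared with Igf2 on the same strand, and the antisense gene Igf2os with 98 on the other. The strand setting is not given in the sources used here, so the level of Igf2 is uncertain by the reads of these genes. For Igfbp7, 85 exonic bases are shared with Polr2b on the opposite strand.

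**Figure D2:**
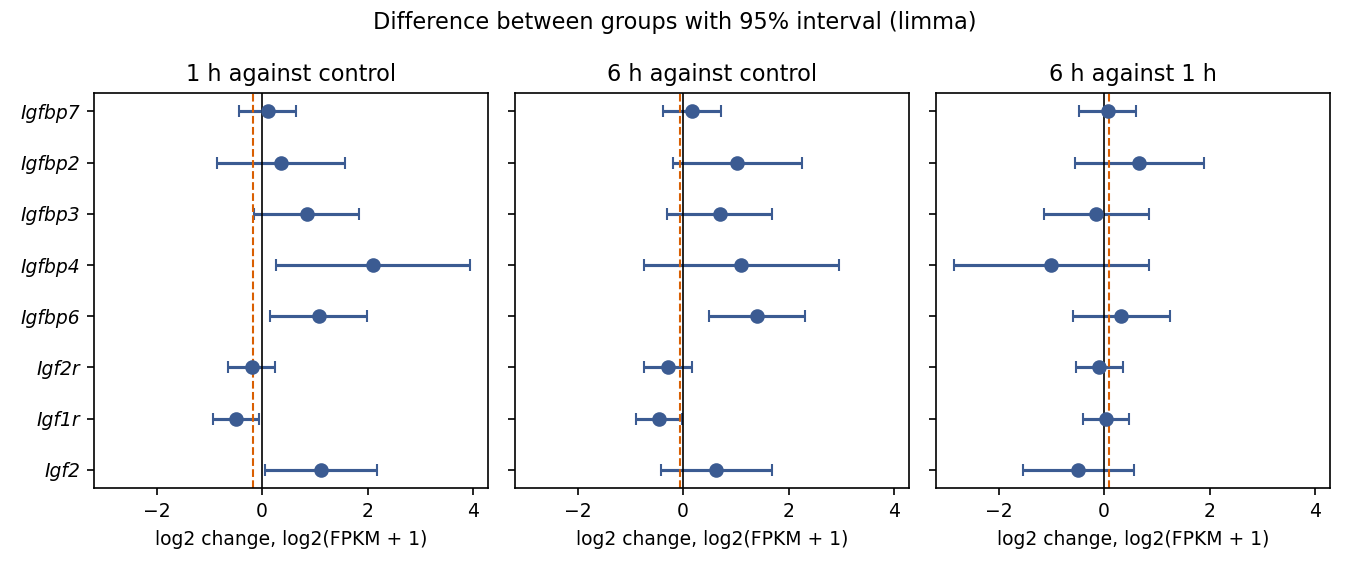
Log2 change of the 8 tested members in the 3 comparisons on the log2(FPKM + 1) scale, with 95% intervals from limma. The dashed line is the median over the 11460 genes tested (-0.168 at 1 h). The intervals of Igfbp4, Igfbp6 and Igf2 lie above 0 and that of Igf1r below 0 at 1 h, and no member passed after adjustment.

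At 6 h after heat no member passed against control either (limma, adjusted p of 0.877 to 0.909 for the 8 tested, where 0% of all genes were called in either direction). Before adjustment, Igfbp6 stood higher with a limma p under 0.05, beside 1.27% of all genes, and Igf1r lower, beside 3.35%. Of the 8 members 0 were separated upwards, beside 1.89% of all genes, and 0 downwards, beside 5.32%. The log2 change was above 0 for 6 of 8, beside 39.9% of all genes, and below 0 for Igf1r and Igf2r, beside 60.1%, with a median of 0.66 beside -0.06 over all genes. Both heat comparisons use the same control libraries, so their values are not independent.

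Igfbp6 stood at 266, 369 and 125 FPKM in 6 h replicates 1, 2 and 3. Replicate 3 lay within the control range and the other 2 were above it. The log2 change against control was 1.40 (SE 0.41), an interval of 1.40- to 4.99-fold. Igfbp2 stood at 1039, 1478 and 1078 FPKM, 3 libraries closer together than the controls, with a log2 change of 1.03 (SE 0.54). All 3 were above controls 2 and 3 and below control 1. Without control replicate 1, the 6 h libraries of Igfbp2 and Igfbp6 lay above the remaining controls, which was so for 4.99% of all genes, and those of Igf1r and Igf2r lay below them, which was so for 11.8%.

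Igfbp4 was uneven at 6 h, at 129.9, 607 and 48.0 FPKM. Replicate 2 was the highest of all 9 libraries, while replicates 1 and 3 lay within the control range. The log2 change of Igfbp4 was 1.10 (SE 0.82). It became -0.26 without control replicate 3 and 6 h replicate 2. These held the lowest and the highest Igfbp4 of the 9 libraries, so leaving them out could only lower the value. Igf2, at 4.17, 5.63 and 1.06 FPKM, was likewise highest in replicate 2 and lowest in replicate 3, where it lay within the control range (log2 change 0.63, SE 0.47). Igfbp3 had another order, at 126.5, 324 and 369 FPKM, with replicate 1 low and replicate 3 high (log2 change 0.69, SE 0.44). Igfbp7 stood at 1212, 1343 and 913 FPKM, Igf1r at 7.65, 4.63 and 6.72 FPKM and Igf2r at 8.75, 9.19 and 9.78 FPKM, all overlapping with the 3 controls. The log2 change of Igf1r was -0.46 (SE 0.20) and that of Igf2r -0.29 (SE 0.20).

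Set directly against 1 h, the 6 h libraries differed beyond the test for 0 of 8 members, beside 0% called higher and 0.279% called lower over all genes tested (limma, adjusted p of 0.664 to 0.951). Before adjustment 0 members had a limma p under 0.05, beside 8.45% of all genes higher and 3.19% lower. Of the 8 members 4 had a log2 change above 0, beside 62.9% of all genes, and 4 below 0, beside 37.1%. The largest differences were -0.997 (SE 0.82) for Igfbp4 and 0.67 (SE 0.54) for Igfbp2. With 1 library left out the value of Igfbp4 ran from -1.972 (without 6 h replicate 2) to -0.156 (without 6 h replicate 3), and without 6 h replicate 3 Igfbp6 at 0.77 and Igfbp2 at 0.735 were larger. For every tested member the groups overlapped, beside 15.2% of all genes separated upwards and 4.97% downwards. Igf2r was separated downwards with median-of-ratios scaling (beside 9.16% of all genes), and Igfbp2 upwards with quantile normalization (beside 12.6%). Without control replicate 3 and 6 h replicate 2, Igf1r was separated upwards (beside 32.1%) and Igfbp4 downwards (beside 9.64%). The interval was narrow only for Igf1r (0.759- to 1.40-fold), Igf2r (0.688- to 1.29-fold) and Igfbp7 (0.719- to 1.53-fold).

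The make-up of the binding protein transcripts varied between libraries. Summed over Igfbp2 to Igfbp7 the level was 2117 ± 921 FPKM in control, 2698 ± 439 FPKM at 1 h and 3143 ± 855 FPKM at 6 h (SD, n = 3), or 0.315% to 0.768% of all FPKM in a library. Igfbp7 and Igfbp2 together made up most of the sum in each library. Igfbp7 gave 34.3%, 62.4% and 60.7% of the sum in control replicates 1, 2 and 3 and 37.9%, 37.9% and 46.8% at 1 h. Igfbp4 gave 2.59% to 4.48% in control, 6.15% to 20.9% at 1 h and 1.90% to 14.7% at 6 h. Its share at 1 h thus lay above the control range in each library, as its level did, and at 6 h it was above in replicates 1 and 2 only.

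**Figure D3:**
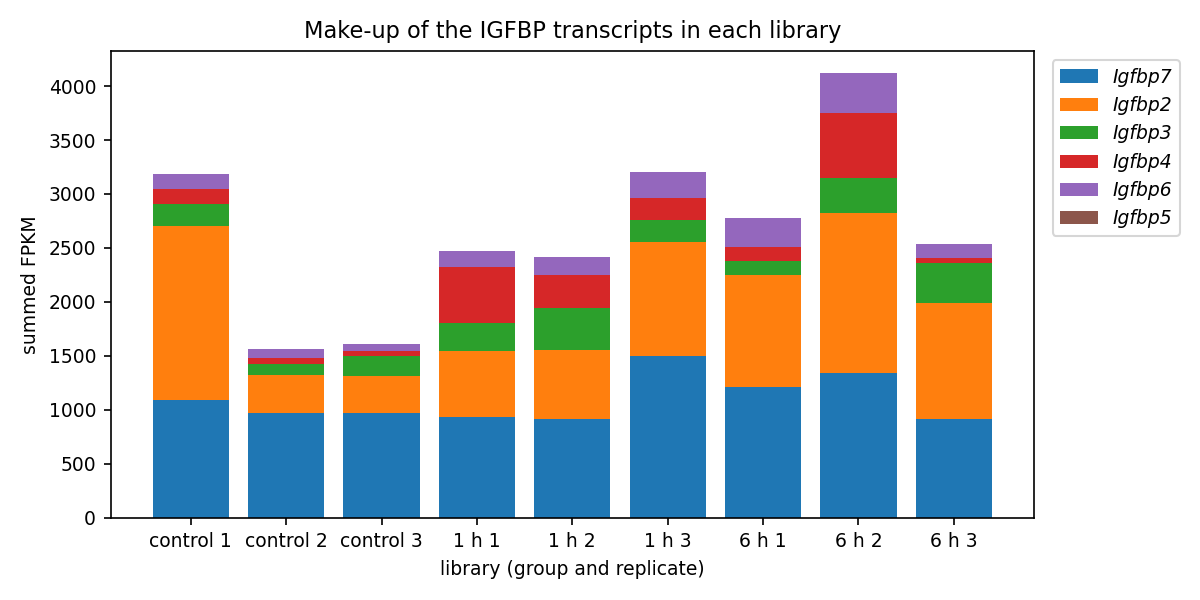
Summed FPKM of the 6 binding proteins in each library, divided by gene. The sum runs from 1563 FPKM in control 2 to 4121 FPKM in 6 h replicate 2, and Igfbp2 takes 50.8% of it in control 1 but 22.4% and 21.3% in controls 2 and 3.

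The authors' deposited table, which holds q-values from DEGseq per the file headers, gives another count of members. By the authors' deposited table, with thresholds set here (q no higher than 0.001, fold change of 2 or more), 3 of 9 members were higher at 1 h, Igfbp4, Igfbp6 and Igf2, beside 3.51% of the 16069 genes with values there. In the authors' deposited table their log2 fold changes were 2.04, 1.03 and 1.55. At 6 h the authors' deposited table gives 4 of 9, with Igfbp5 in addition, beside 3.01%, and for 6 h against 1 h it gives 1 of 9, Igfbp5, beside 2.48%. The authors' deposited table gives 0 members lower in each comparison, beside 4.33% at 1 h, 3.44% at 6 h and 2.02% at 6 h against 1 h. The 6 h value of Igfbp5 rests on 6 h replicate 1, the one library above 1 FPKM.

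Markers of other cells of the testis were present in the libraries, and those of stroma were high in the same libraries as some members. Whether other cells or the myoid cells themselves made these transcripts was not tested. In bulk RNA a change in the number of cells of a type and a change of RNA per cell cannot be told apart. Of 8 fibroblast and stroma markers all had values and none was at 0 in any library. Their summed level was 667 to 1111 FPKM in control, 1587 to 2125 FPKM at 1 h and 740 to 2703 FPKM at 6 h, so the 1 h libraries lay above all controls, and 5 of the 8 genes were separated upwards at 1 h, beside 4.49% of all genes, with 0 called. With median-of-ratios scaling 6 of the 8 were, beside 9.11%. Col1a1 and Col3a1, which averaged 622 and 507 FPKM, made up most of the sum. Lum and Dpt reached at most 4.14 and 2.67 FPKM. Shares of this sum are therefore mainly ratios to the collagen genes Col1a1 and Col3a1. Dcn, the matrix proteoglycan decorin, stood at 46.7 to 66.4 FPKM in control and 153 to 246 FPKM at 1 h. At 6 h Dcn stood at 139, 350.1 and 55.4 FPKM in replicates 1, 2 and 3. Igfbp4, Igfbp6 and Igf2 were likewise highest at 6 h in replicate 2 and lowest in replicate 3. As a share of the summed stroma markers, Igfbp4 was at 12.8%, 9.45% and 4.58% in control and 24.3%, 19% and 10.2% at 1 h, which overlap. The share of Igfbp6 was 6.80% to 12% in control and 7.12% to 12.6% at 1 h, which overlap too. In 6 h replicates 1, 2 and 3 the share of Igfbp4 was 8.35%, 22.5% and 6.49%, overlapping with control. That of Igfbp6 was 17.1%, 13.7% and 16.9%, above all controls. Of the 8 myoid markers 0 had a log2 change above 0 at 1 h or at 6 h, with medians of -0.44 and -0.37 beside -0.17 and -0.06 over all genes, 0 called, and Acta2 below all controls at 1 h in unscaled values. With median-of-ratios scaling 1 of the 8 was above 0 at 1 h, and 0 were separated downwards. As a share of the summed myoid markers, Igfbp4 was at 0.785% to 2.73% in control and 4.49% to 12% at 1 h, and Igfbp6 at 1.17% to 2.57% and 3.52% to 5.56%, and in neither did the groups overlap. The myoid sum varied little, at 4287 to 5317 FPKM in control and 4125 to 4394 FPKM at 1 h. Shares of it therefore largely repeat the separation of the levels. How many of all genes are separated after either division was not computed, so the divisions do not tell which cells made the transcripts. The part of these cells in the results was not tested.

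The other marker lists did not all move alike. Of 9 macrophage markers tested, 9 had a log2 change above 0 at 1 h, beside 23.8% of all genes. At 6 h 8 of the 9 did, beside 39.9%. Their medians were 0.94 and 1.02, with 0 called. Of the 8 stroma markers, 8 were above 0 at 1 h and 7 at 6 h, with medians of 0.93 and 0.68. Of 11 macrophage markers, all with values, the sum was 54.9 to 96.4 FPKM in control, 59.95 to 301.5 FPKM at 1 h and 46.6 to 307 FPKM at 6 h. At 1 h it was lowest in replicate 1 and highest in replicate 3, as Igfbp6 was, while Igfbp4 and Igf2 were highest in replicate 1. At 6 h it was lowest in replicate 3, as Igfbp4, Igfbp6 and Igf2 were. The part of these cells was not tested. C1qb, a macrophage complement gene, was at 0 in control replicate 2. Of 14 Sertoli markers the sum was 3243 FPKM in control replicate 3 and 308 to 604 FPKM in the other 8 libraries. Control replicate 3 also had the lowest Igfbp2, Igfbp4, Igfbp6 and Igf2 and the highest Igf1r and Igf2r of the 9 libraries. Without it, Igfbp3, Igfbp4, Igfbp6 and Igf2 still lay above both remaining controls at 1 h, as did 8.09% of all genes, and Igf1r still lay below, as did 35.4%. The 11 Leydig markers summed to 1147 to 2481 FPKM in control and 1136 to 2361 FPKM at 1 h, and the 9 endothelial markers to 43.3 to 105 FPKM and 32.3 to 59.6 FPKM. The Leydig list was uneven, with Insl3, a Leydig hormone, at 181 to 1607 FPKM and Cyp11a1, a steroid synthesis enzyme, at 288 to 820 FPKM. Its Hsd3b6, Lhcgr, Hsd17b3 and Cyp17a1 reached at most 0.94, 0.27, 0.12 and 0.11 FPKM. The part of Leydig and Sertoli cells in the results was not tested. The 7 germ cell markers summed to at most 9.29 FPKM, and of 3 red blood cell markers 2 had values, summing to at most 7.08 FPKM.

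**Figure D4:**
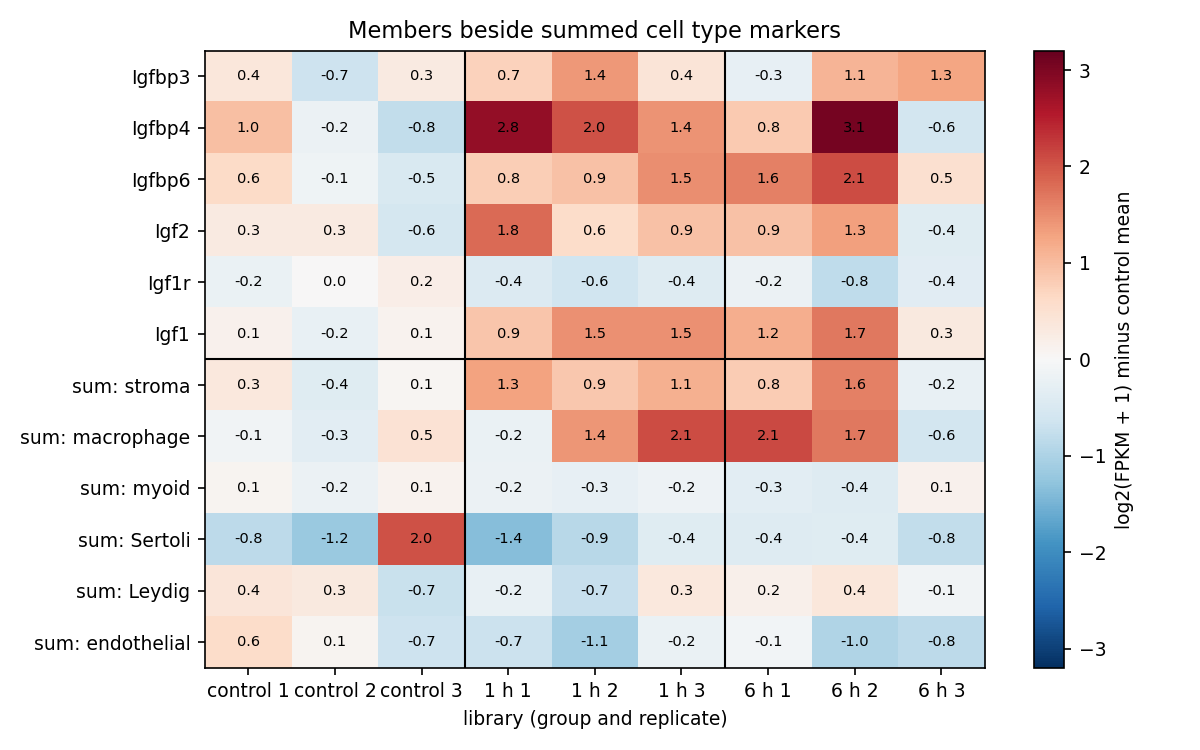
Difference of each library from the control mean in log2(FPKM + 1), for 5 members and Igf1 (upper block) and for the summed FPKM of 6 marker lists (lower block), in columns by library. Igfbp4, Igfbp6 and the stroma sum are high at 1 h and in 6 h replicate 2 and near control in 6 h replicate 3, while the Sertoli sum is high in control 3.

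Of the ligands and receptors outside the members, Igf1 and Insr passed the filter. Igf1, the ligand that stimulates IGF1R most strongly, stood at 5.81, 4.20 and 5.67 FPKM in control, 10.4, 16.1 and 15.95 FPKM at 1 h and 12.9, 18.9 and 6.64 FPKM at 6 h. Every heated library lay above every control, beside 4.49% of all genes separated upwards at 1 h and 1.89% at 6 h. Its log2 change was 1.27 at 1 h and 1.05 at 6 h, with limma adjusted p of 0.264 and 0.877. Insr, the insulin receptor, stood at 2.12 to 4.18 FPKM over the 9 libraries, and Igfals, the partner of IGFBP3 in serum complexes, at 0.03 FPKM or less. Of the 9 genes on this list 7 had values, 2 were tested and 0 were called in any comparison.

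Of 13 proteases that cut binding proteins and inhibitors of these proteases, 12 were tested and 0 were called in any comparison. At 1 h their median log2 change was 0.33, beside -0.17 over all genes, with 2 separated upwards (Htra1 and Plau) and 1 downwards (Stc1), beside 4.49% and 21.4% of all genes, of which Plau and Stc1 are named after their values were seen. With median-of-ratios scaling 6 were separated upwards and 0 downwards, beside 9.11% and 6.99%. Stc1, an inhibitor of PAPP-A, stood at 110, 136 and 50.5 FPKM in control and 46.9, 31.9 and 41.7 FPKM at 1 h. Htra1, a serine protease, stood at 403, 230.01 and 266 FPKM in control and 461, 499 and 534 FPKM at 1 h. Ctsd and Ctsb, lysosomal cathepsins, stood at 505 to 1059 FPKM and 329.95 to 542 FPKM over the 9 libraries. Adam9, a membrane protease, stood at 110 to 131 FPKM in control and 60.4 to 107 FPKM at 6 h. Genes with an IGFBP-like domain had 9 of 9 tested and 0 called, a median log2 change of 0.63 at 1 h and -0.21 at 6 h, and 3 separated upwards at 1 h (Ctgf, Htra1 and Nov, the last named after its values were seen), beside 4.49% of all genes. Cyr61 and Ctgf, secreted matrix proteins of the CCN family, stood at 500.1 to 1620 FPKM and 643 to 1278 FPKM over the 9 libraries. Wisp2, of the same family, stood at 48.8 to 483 FPKM.

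Downstream of the receptor, 26 of 27 signalling genes were tested and 0 were called in any comparison. At 1 h 10 of the 26 were separated downwards, beside 21.4% of all genes, and 2 upwards (Trib3 and Irs1, named after their values were seen), beside 4.49%, with a median log2 change of -0.22 beside -0.17. This count rested on the scaling: with median-of-ratios scaling 1 of the 26 was separated downwards, beside 6.99%, and 4 upwards, beside 9.11%, and with quantile normalization 2 and 3 were. Akt1, the kinase that IGF1R activates through PI3-kinase, stood at 118, 127 and 117 FPKM in control and 102, 109 and 87.1 FPKM at 1 h. Rack1, a scaffold that binds IGF1R, Rheb, an activator of mTOR, and Ptpn11, the phosphatase SHP2, averaged 673, 129 and 50.4 FPKM. Of the IGF2 mRNA-binding proteins Igf2bp2 stood at 9.05 to 10.9 FPKM in control and 13.8 to 17.2 FPKM at 1 h, with a log2 change of 0.58 (limma adjusted p = 0.426), and 0 of 2 tested of 3 were called. Of 5 partners of IGF2R in the mannose 6-phosphate route 0 of 5 tested were called. M6pr, the other mannose 6-phosphate receptor, was even, at 103 to 113 FPKM over the 9 libraries. Plaur, the urokinase receptor, stood at 20.3 to 78.6 FPKM.

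Each tested member was also set beside all other tested genes by the correlation of log2(FPKM + 1) over the 9 libraries, which share 3 groups and the libraries that stand apart. Igfbp4 was most like Rnase4 (r = 0.98), Nkd1 (0.97) and Col6a1 (0.97), and Col6a1 ranged from 8.45 to 66.2 FPKM. Igfbp6 was most like Cpz (0.96), Ecm1 (0.95) and Cuzd1 (0.95). Igf2 was most like Lbp (0.97), Plod1 (0.96) and Fxyd5 (0.96). The genes nearest to Igfbp2 were Palmd (0.94), Fbln2 (0.92) and Pak6 (0.92), and those nearest to Igfbp7 were Ntng2 (0.93), P3h4 (0.92) and Pofut2 (0.91). Igfbp3 had the weakest likeness of the members, with Lrif1 at 0.89, Capn5 at 0.88 and Isg15 at 0.85. Igf1r was most like Zmynd11 (0.97), Tmem248 (0.97) and Cnot6l (0.97), and Igf2r most like Tchhl1 (0.96), Ankrd42 (0.94) and Klf12 (0.94). Several of these genes were low. Nkd1, Cpz, Cuzd1 and Capn5 reached at most 4.58, 2.38, 2.92 and 1.97 FPKM. Ntng2, Tchhl1, Ankrd42 and Klf12 reached at most 3.34, 1.73, 3.47 and 2.8 FPKM. Lrif1 ranged only from 5.55 to 7.02 FPKM. Each value is the top of a search over all genes tested and describes these libraries only.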

How the data were processed

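RNA of 9 libraries was measured by sequencing. The authors deposited gene-level FPKM values in 1 table, with log2 fold changes, p-values and q-values from DEGseq per the file headers. Among the programs in the submitters' processing notes are RSEM 1.2.12, Bowtie2 2.2.5 and HISAT2 2.0.4, with mm10 as the build, and without the role of each program. Of 20717 listed genes 3158 have no values.

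Genes reaching 1 FPKM in 3 or more libraries (11460, with 8 members) were tested two-sided with limma 3.58.1 (R 4.3.3) on log2(FPKM + 1), in 1 fit of all 9 libraries and 3 group means with a variance trend. Benjamini-Hochberg adjustment ran over all 11460 genes, with 0.05 as the threshold for a call. The log scale understates changes of low genes. FPKM is relative to the library total. Depth was inferred from transcripts of 400 to 1200 bases, where 88.4% to 91.0% of low values fell within 0.2 reads of an integer. Depth and a length offset were chosen to bring these same values close to integers. The chance share of 40% holds only without such a search. No count test was made from FPKM. Fit and depth estimate were tested on simulated data, the depth estimate at a depth close to those inferred.

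The members and lists were chosen with earlier results of these data known. Named were all members, the called and up to 4 highest genes of each pathway list, and the 3 genes most correlated with each member; marker genes, Igfals and Igf2bp2 were named for their role. Same-numbered control and 1 h libraries deviated together from their group means (r = 0.19, 0.15 and 0.26), while those of other groups did not (-0.35 to 0.04). For control replicate 2 the closest 1 h library had another number. The main fit did not pair libraries, and the replicate block was run as an alternative only. Alternatives were pseudocount, filter, scaling, variance trend, groups in the fit, replicate block and libraries left out.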

Additional observations from a re-analysis of the deposited data

How the results depend on the processing

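Of 429 member values over 18 settings and 24 member comparisons, 405 kept their direction, 24 changed direction and 0 passed the threshold. At 1 h Igfbp3, Igfbp4, Igfbp6, Igf2 and Igf1r kept their direction in every setting that gave a value (Igf2 had none with the 5 FPKM filter). With the replicate number as a block, the genes called at 1 h were 15 higher and 0 lower, those at 6 h against 1 h were 23 lower, and no member's call changed. Where values moved, the cause was not tested.

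The member values that changed sign are log2 changes. With median-of-ratios scaling, 6 h against 1 h gave -0.057 for Igfbp7 and -0.067 for Igf1r. Quantile normalization gave -0.007 for Igfbp7 at 6 h against control, and -0.015 for Igfbp7 and -0.001 for Igf1r against 1 h. Without control replicate 3 and 6 h replicate 2 together, Igfbp2 was -0.015 and Igf2r 0.002 at 1 h, Igfbp4 was -0.258 and Igf2 -0.003 at 6 h against control, and Igfbp6 was -0.006 and Igfbp7 -0.048 against 1 h. Leaving out 1 library at a time, the 1 h values ran from -0.015 (without control 3) to 1.104 (without control 1) for Igfbp2, from -0.13 (without 1 h replicate 3) to 0.227 for Igfbp7 and from -0.392 to 0.002 (without control 3) for Igf2r. For 6 h against 1 h they ran from -0.437 to 0.331 (without 6 h replicate 1) for Igfbp3, -0.006 (without 6 h replicate 2) to 0.77 for Igfbp6, -0.055 (without 1 h replicate 2) to 0.302 for Igfbp7, -0.088 (without 6 h replicate 1) to 0.222 for Igf1r and -0.832 (without 6 h replicate 2) to 0.012 (without 6 h replicate 3) for Igf2.

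Counts over all genes moved more. At 1 h the 18 genes called higher became 9 with no filter, 31 with quantile normalization and 46 with only the groups compared, and 8 (without 1 h replicate 2) to 45 (without 6 h replicate 2) with 1 library left out. The 0 called lower became 1 with no filter, with the 5 FPKM filter, with only the groups compared and with both libraries left out, and 0 to 8 (without 6 h replicate 2) with 1 left out. At 6 h against control the 0 called higher became 0 to 25 (without 6 h replicate 1). At 6 h against 1 h the 0 called higher became 1 with a pseudocount of 0.1 and with no filter, 3 with the 5 FPKM filter and without the variance trend, 7 with quantile normalization, 5 with both libraries left out and 0 to 39 (without 6 h replicate 1) with 1 left out. The 32 called lower became 21 with no filter and 8 (without 1 h replicate 3) to 65 (without 6 h replicate 1). At the inferred depth Igfbp5 had 15 to 77 reads outside 6 h replicate 1, which limits its precision; reads of Igf2 were not estimated. Counts of the lists under other scalings were added after seeing the data.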
